A study of Homo sapiens with 29 samples.

Results

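The AXL knockout line of PC9 cells (KO) was compared here with the 8 lines made from it by putting AXL back. PC9 is an established lung adenocarcinoma line that depends on mutant EGFR. The libraries were taken by their labels. They were the KO libraries from untreated cells (UT) and from cells given erlotinib (E), an EGFR inhibitor, which is 2 of the 29 RNA-seq libraries of the series. They were set against 16 libraries, UT and E, of KO cells that had been given back an AXL gene. The gene was unaltered in the line WT, lacked kinase activity in KD, and carried phenylalanine in place of a tyrosine in Y634F, Y643F, Y698F, Y726F, Y750F and Y821F. Cells were collected after 24 h, and each line gave 1 library per treatment. The parental line (PAR), which keeps its own AXL gene, took no part in the tests, and its values are given beside some results. Libraries from cells that also received an AXL antibody along with erlotinib were not used here.

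All 9 lines share the knockout, which was made with CRISPR/Cas9 and a guide aimed at the kinase domain of AXL. The 8 transduced lines also carry a lentiviral vector with a puromycin marker and went through sorting on a fluorescent protein. By the study's supplement, most cells of these lines did not express AXL, so that each transduced library mixes AXL-expressing cells with cells that lack it. A difference between KO and the transduced lines can therefore not be told apart from a difference in vector, sorting or passage. Whether KO was grown from a single cell is not given in the sources used here. In bulk RNA, fewer cells with a transcript and less transcript per cell cannot be told apart.

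AXL is a receptor tyrosine kinase of the TAM family, together with TYRO3 and MERTK. Its ligand GAS6 binds the extracellular part of the receptor and brings the kinases together, and the tyrosines of the intracellular part then become docking sites for signalling proteins. In lung cancer, AXL is known for its link to mesenchymal gene expression and to tolerance of EGFR inhibitors.

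Levels are in TPM, the share of all transcripts in a library after correction for transcript length, summed over the transcripts of a gene. Differences are KO minus the mean of the 8 transduced lines on the log2(TPM + 1) scale, averaged over UT and E, so that treatment is held as a block. A gene was tested if its mean was at least 10 TPM over the 29 libraries, which left 9085 genes. The test was limma across all of them with the line as the unit, and a gene passed at a Benjamini-Hochberg adjusted p below 0.05. KO is a lone line, and the test assumes that it would vary like the other 8. An exact two-sided permutation of 1 line against 8 cannot give a p below 0.111. The tables hold no read counts, so the depth is unknown. A second description counted genes for which KO lay below, or above, all 8 transduced lines in both treatments.

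The labelled cell type was checked first. In KO, 6 epithelial markers summed to between 9240 and 11082 TPM, and in the transduced lines to between 8155 and 11180 TPM. Markers of leukocytes, stroma and endothelium, 18 in all, summed to between 87.0 and 96.8 TPM in KO and to between 67.6 and 103 TPM in the transduced lines, and 10 of them stayed under 1 TPM in all 18 libraries. CD68, found in leukocytes and in many cell lines, and COL1A1, a collagen, made up most of that sum in KO. KO stood no farther from the transduced lines than these lines stood from each other. The root mean square difference from the mean of the transduced lines was 0.17 for KO, while each transduced line differed from the other 7 by 0.12 to 0.18.

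AXL had the largest difference among the genes that passed the test. Its RNA was not lost in KO, where it stood at 92.4 TPM in UT and 79.3 TPM in E. The transduced lines ranged from 217 to 428 TPM in UT, with a median of 304 TPM, and from 379 to 852 TPM in E, with a median of 542 TPM. No transduced library came near the KO libraries. PAR held 351 TPM in UT and 245 TPM in E. On the log2 scale the difference was −2.27 ± 0.31 (SE; limma adjusted p = 0.026), a 4.81-fold lower level, and KO was lower than 8 of 8 lines. The direction follows from how the lines were built, since the vector supplies AXL. The adjusted p rose above the threshold in several alternative fits, among them UT alone, where it was 0.156, and without Y634F, Y643F, Y698F or Y821F, where it was between 0.0557 and 0.0703.

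AXL lies on chromosome 19 (GRCh38, 41219203 to 41261766, plus strand), and its transcripts did not differ alike. AXL-201 is the longest coding transcript and reaches the end of the gene. It stood at 41.8 TPM in UT and 39.6 TPM in E in KO, against 47.6 to 60.5 TPM and 43.9 to 52.1 TPM in the transduced lines. KO was thus below all 8, by 0.27 on the log2 scale, and the PAR level was 139 TPM in UT and 115 TPM in E. AXL-203, a coding transcript that ends before the long 3′ end of AXL-201, stood at 12.1 TPM in UT and 12.6 TPM in E in KO. The transduced lines held 58.4 to 152 TPM of it in UT and 132 to 342 TPM in E. AXL-205, annotated as a retained-intron transcript, was nearly absent from KO at 0.18 TPM in UT and 0.19 TPM in E, whereas the transduced lines held 25.2 to 109 TPM and 84.1 to 273 TPM. AXL-201 made up 45.3% of AXL in the KO UT library and 49.96% in KO E, and 5.53% to 21.9% in the 16 transduced libraries. The exact two-sided permutation p was 0.111 for each of these transcripts, the smallest that 1 line against 8 allows. Reads from shared exons are divided between transcripts by estimation, so a transcript name here need not be the molecule that was present.

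The remaining coding transcript, AXL-202, lacks 1 exon of AXL-201. The exon is shown because it is the only internal exon of AXL-201 that AXL-202 lacks. It is exon 10 of 20 in AXL-201, a coding exon of 27 bases at chr19:41239694-41239720 on the plus strand (GRCh38, GENCODE 29), written 5′ to 3′:

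AXL exon 10: ggcaagcacagccagtccaccagctgg

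AXL-201, AXL-203 and AXL-205 hold this exon. AXL-202 stood at 33.0 TPM in UT and 26.2 TPM in E in KO, and at 72.4 to 127 TPM and 108 to 192 TPM in the transduced lines. Its share of the 4 transcripts was 37.9% in KO UT and 33.3% in KO E, and it spanned 22.2% to 40.3% in the transduced libraries. In PAR it was 53.3% in UT and 47.9% in E.

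**Figure D1:**
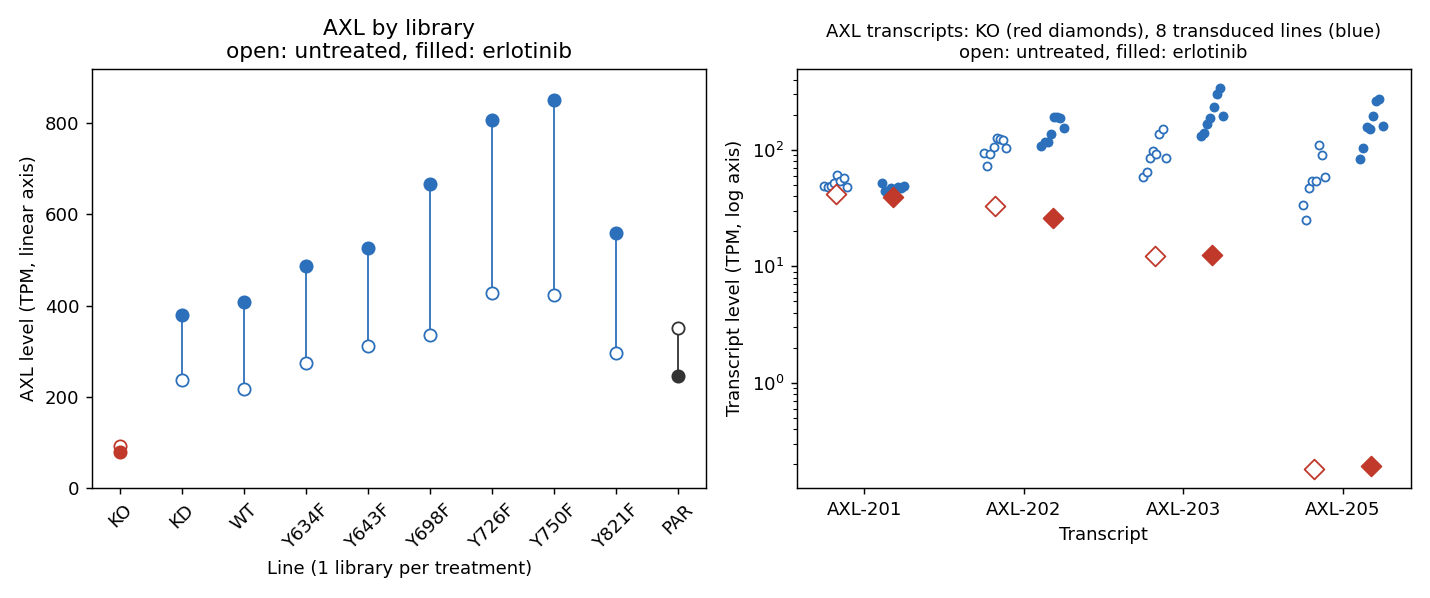
AXL level in TPM for each line on a linear axis (left) and the level of 4 AXL transcripts on a log axis (right), with open symbols for untreated and filled symbols for erlotinib libraries, 1 library each. KO lies at 92.4 and 79.3 TPM, below every transduced library, and the gap is small for AXL-201 and widest for AXL-205.

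With erlotinib, the AXL level summed over its transcripts went in opposite directions in KO and in the transduced lines. In KO the E level was 0.858 times the UT level. In the transduced lines it was 1.59 to 2.01 times the UT level, higher in 8 of 8. On the log2 scale the change was −0.22 in KO and 0.87 ± 0.12 (SD, n = 8 lines) in the transduced lines, a difference of −1.09 ± 0.14 (SE). This was the smallest p of all 9085 genes, yet it did not pass after adjustment (limma adjusted p = 0.101). PAR, with its own AXL gene, went the same way as KO at 0.699 times the UT level. AXL-201 did not share the rise in most transduced lines. Its median there was 50.7 TPM in UT and 47.1 TPM in E, and it rose only in KD and Y821F. The medians of AXL-202, AXL-203 and AXL-205 were higher in E than in UT. No gene passed the test for a different erlotinib response in KO, and 341 of 9085 genes, or 3.75%, had an unadjusted p below 0.05.

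Few genes passed the adjusted test. Only 2 of 9085 genes passed, or 0.022%, both lower in KO: AXL and ENSG00000267340, a processed pseudogene on chromosome 17. No gene passed as higher. At an unadjusted p below 0.05 there were 708 genes (7.79%), of which 435 (4.79%) were lower and 273 (3.0%) higher in KO. Fitting the 18 libraries as separate samples called 44 genes (0.484%), 29 lower (0.319%) and 15 higher (0.165%), but that treats UT and E of a line as independent. With the correlation between libraries of a line estimated, 5 genes passed, all lower: AXL, DNM1, TPM2, FLNC and SFRP1. SFRP1, an inhibitor of WNT signalling, was named after its values were seen.

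The pseudogene ENSG00000267340 held 7.71 TPM in UT and 3.87 TPM in E in KO. In the transduced lines it held 7.86 to 18.2 TPM in UT and 18.1 to 55.3 TPM in E. The difference was −1.45 ± 0.20 (SE; limma adjusted p = 0.026), made up of −0.54 in UT and −2.37 in E. In the limma fit to 18 libraries its adjusted p was 0.0675, and 0.191 with the correlation between libraries of a line estimated. It left the threshold in 12 of 20 alternative settings. A processed pseudogene shares sequence with its parent gene, so its level is uncertain.

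The next genes in the ranking did not pass, and 4 with lower levels in KO are described. DNM1, which encodes the membrane-fission GTPase dynamin 1, held 22.4 TPM in UT and 15.1 TPM in E in KO. The transduced lines held 45.4 to 94.2 TPM (median 70.4 TPM) and 27.0 to 74.7 TPM (median 51.2 TPM), without overlap. The difference was −1.61 ± 0.27 (SE; limma adjusted p = 0.099). Leaving out 1 line at a time moved that p from 0.0013, without KD, to 0.213. TPM2, which encodes the actin-binding protein tropomyosin beta, held 13.2 TPM in UT and 32.9 TPM in E in KO. In the transduced lines it held 21.9 to 33.3 TPM and 44.4 to 60.9 TPM. That difference was −0.85 ± 0.13 (SE; limma adjusted p = 0.0791), with an adjusted p from 0.00784, without KD, to 0.19 when 1 line at a time was left out. DNM1 and TPM2 both lie on chromosome 9, which is described further on. FLNC, the actin crosslinker filamin C, held 65.4 and 48.7 TPM in KO, against medians of 82.2 and 65.9 TPM (difference −0.37; limma adjusted p = 0.202). PLCB4, a phospholipase C, held 14.9 and 11.5 TPM in KO, against medians of 20.4 and 19.1 TPM (difference −0.56; limma adjusted p = 0.204). In each of these 4 genes KO lay below all 8 lines in both treatments. PAR also lay below all 8 lines for TPM2 (13.5 TPM in UT and 22.1 TPM in E) and PLCB4 (12.7 and 7.08 TPM). It lay above them for FLNC (212 and 166 TPM), and for DNM1 above them in UT and inside them in E.

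On the other side, 6 genes with the smallest p among those higher in KO lay above all 8 transduced lines in both treatments, and none passed. PAR also lay above all 8 lines in both treatments for S100A4 (33.8 and 35.4 TPM), PI3 (35.2 and 32.3 TPM) and S100A14 (276 and 246 TPM). It lay below them for ALPP and ZBED2, and for SNCG below them in UT and above them in E. S100A4, a calcium-binding protein of motile cells, held 53.9 TPM in UT and 22.3 TPM in E in KO. The transduced lines held 11.3 to 29.2 TPM and 6.53 to 14.1 TPM. Its difference of 1.23 ± 0.27 (SE) was the widest of the 6 (limma adjusted p = 0.259). PI3, the secreted protease inhibitor elafin, held 51.7 and 29.6 TPM in KO against 15.99 to 31.7 TPM and 11.5 to 23.4 TPM in the transduced lines (difference 0.99; limma adjusted p = 0.229, and from 0.00784, without KD, to 0.392 with 1 line at a time left out). ALPP, placental alkaline phosphatase, held 29.1 TPM in UT and 358 TPM in E in KO, against 15.5 to 27.8 TPM and 197 to 276 TPM (difference 0.62; limma adjusted p = 0.0965, 0.0325 with each library centred on its median, and 0.0516 to 0.209 with 1 line at a time left out). ALPP has near-identical neighbours, so its level is uncertain. SNCG, gamma-synuclein, differed by 0.61, ZBED2, a transcription factor, by 0.44, and S100A14, an epithelial S100 protein, by 0.38, with limma adjusted p between 0.204 and 0.259.

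**Figure D2:**
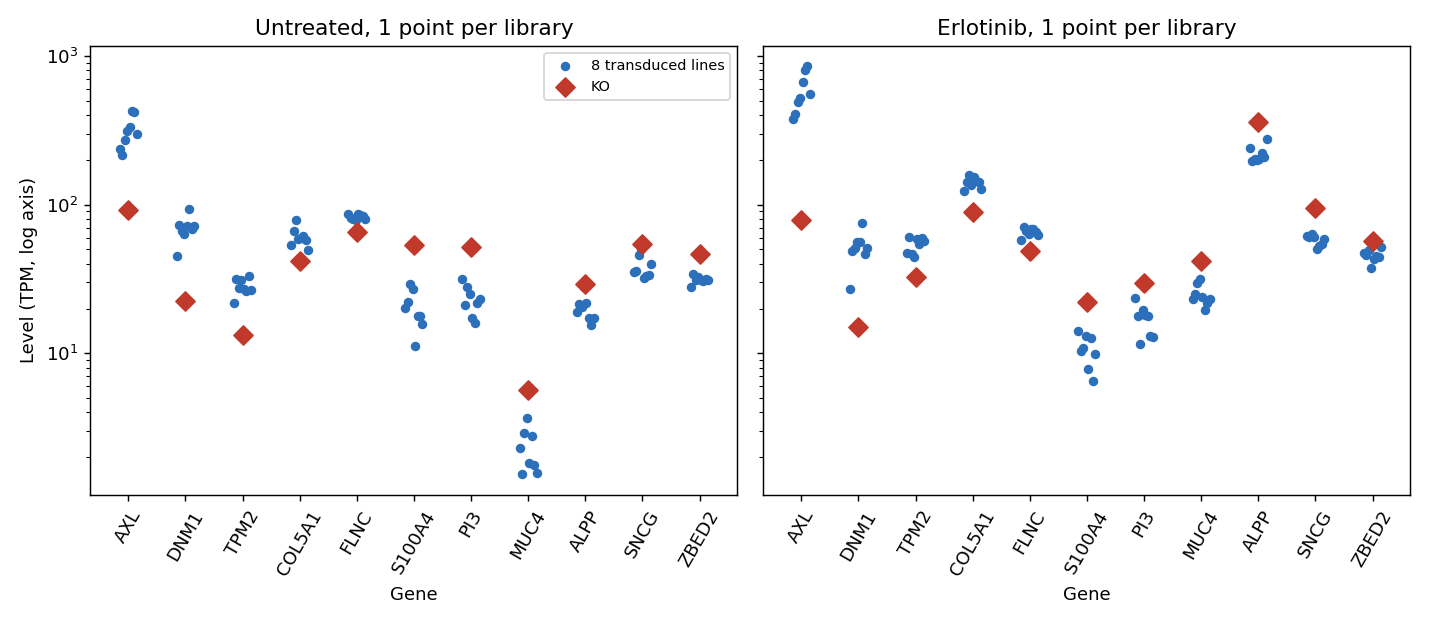
Levels in TPM on a log axis for 11 genes, among them COL5A1 and MUC4, which belong to gene lists described below, in untreated (left) and erlotinib (right) libraries, with KO as red diamonds and the 8 transduced lines as blue points. KO lies outside the transduced lines for each gene in both panels, below them for AXL, DNM1, TPM2, COL5A1 and FLNC and above them for the other genes shown.

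The level of AXL varied among the transduced lines, which allowed a description that does not use KO. Over the 8 lines, the Pearson correlation with AXL (mean of UT and E, log2 scale) was 0.62 for DNM1, 0.38 for TPM2, 0.43 for FLNC, 0.25 for PLCB4 and 0.65 for ENSG00000267340. It was −0.52 for S100A4, −0.67 for PI3, −0.23 for ZBED2, −0.53 for SNCG, −0.52 for ALPP and −0.20 for S100A14. Among the genes just listed, those lower in KO had positive values and those higher in KO negative ones. The listed genes were picked by their difference in KO, and values for the other named genes are not given here. With 8 lines each correlation is imprecise, none was tested, and no relation to the AXL level is concluded. The genes above all 8 lines had a median correlation of −0.29 and those below all 8 lines one of 0.098, beside a median of −0.033 over all 9085 genes. A value above 0 was found for 25.7% of the first, 60.5% of the second and 46.3% of all genes. The lines differ in receptor as well as in AXL level, and all values of a line come from the same libraries.

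KO lay below all 8 transduced lines in both treatments for 382 of 9085 genes (4.2%) and above all 8 for 237 (2.61%). With each library centred on its median the counts were 274 below and 376 above, so the balance between lower and higher depends on scaling. Without Y643F, 403 genes lay above. The median difference over all genes was −0.012. The per-gene differences in UT and in E had a Pearson correlation of 0.348 across genes, which are not independent replicates. A difference of more than 1 on the log2 scale was seen in 17 genes, 7 lower and 10 higher. PAR too lay below all 8 lines in both treatments for 100 of the 382 genes, or 26.2%, beside 18.3% of all genes. It lay above all 8 for 43 of the 237, or 18.1%, beside 11.3% of all genes. PAR lay on the opposite side to KO for 37 of the 382, or 9.7%, and for 61 of the 237, or 25.7%.

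**Figure D3:**
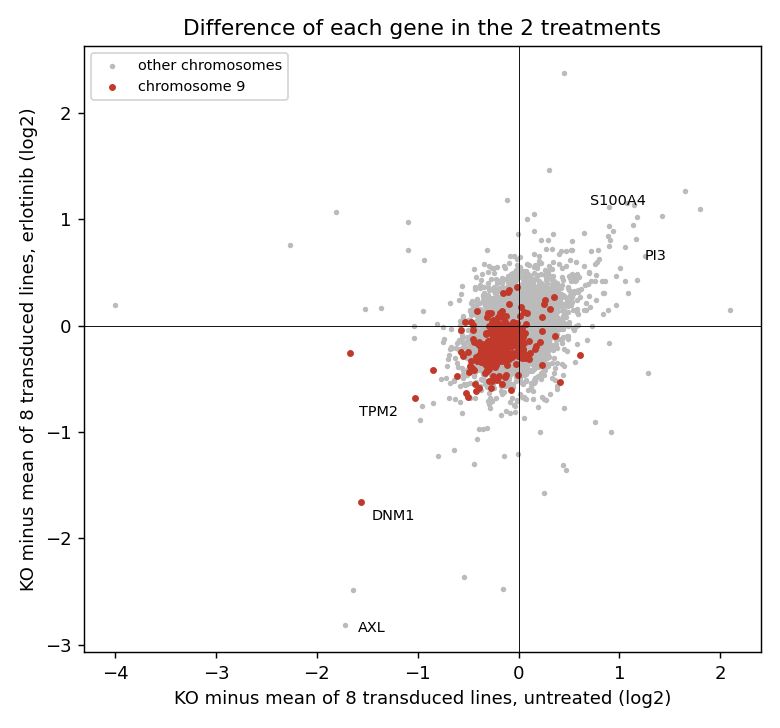
Difference between KO and the mean of the 8 transduced lines for each of 9085 genes in untreated (x axis) and erlotinib (y axis) libraries, log2(TPM + 1), with the 364 genes of chromosome 9 in red. AXL and DNM1 lie far from the rest in both treatments, and the chromosome 9 genes gather below 0 on both axes.

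The genes below all 8 lines were not spread evenly over the chromosomes. Chromosome 9 was singled out after its values were seen, so it is described with no claim from a test. It carried 364 of the tested genes, or 4.01%, and 122 of the 382 genes below all 8 lines, or 31.9%. On this chromosome 33.5% of tested genes lay below all 8 lines, beside 4.2% of all genes and 1.36% to 6.50% on each of the other 21 autosomes and the X chromosome. Only 2 chromosome 9 genes lay above all 8 lines, LCN2, an iron-scavenging secreted protein, and PTGES, a prostaglandin E synthase.

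The shift on chromosome 9 was small per gene and broad. The median difference was −0.17 on the log2 scale, so that the KO level was 88.6% of the transduced level, and 343 of the 364 genes, or 94.2%, were on the lower side. It was −0.19 in UT alone and −0.18 in E alone. The medians of the other 21 autosomes and X lay between −0.030 and 0.067. Cut into windows of 10 Mb, all 13 windows that held a tested gene had a median below 0, from −0.25 to −0.13, on both sides of the centromere. The transduced lines, each against the other 7, had chromosome 9 medians between −0.047 and 0.059. PAR differed from the 8 transduced lines by −0.099 there, less than on chromosome 17, where it differed by −0.22. PAR was below all 8 lines for 89 of the 364 chromosome 9 genes, or 24.5%, beside 18.3% of all genes, and 39 of these were among the 122 genes below in KO.

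Chromosomes 3 and 20 had the highest KO medians, at 0.067 and 0.059, but these did not leave the spread of the transduced lines. Single transduced lines lay between −0.077 and 0.11 on chromosome 3 and between −0.092 and 0.095 on chromosome 20. Chromosome 9 was the only one, of 23 chromosomes examined, on which the KO median lay outside the values of all 8 transduced lines. The median stayed between −0.19 and −0.15 in the 20 alternative settings.

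**Figure D4:**
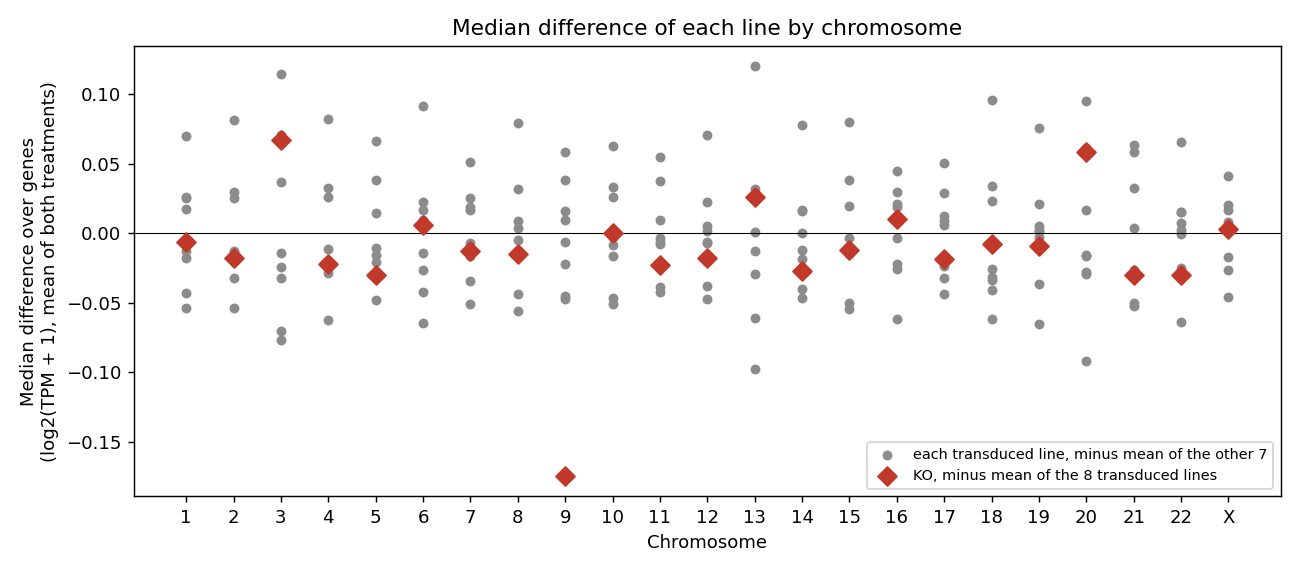
Median difference over the tested genes of each chromosome, log2(TPM + 1), for KO against the 8 transduced lines (red diamonds) and for each transduced line against the other 7 (grey points). On chromosome 9 the KO value of −0.17 lies below all 8 grey points, which span −0.047 to 0.059.

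Genes with known roles were among those on chromosome 9, of which CDK9 and GSN were named after their values were seen. CDK9, the kinase that releases paused RNA polymerase, held 54.5 TPM in UT and 49.2 TPM in E in KO, against 55.7 to 73.5 TPM and 65.1 to 77.7 TPM in the transduced lines. COL5A1, a fibrillar collagen chain, held 41.7 and 89.8 TPM in KO against 49.4 to 79.1 TPM and 123 to 159 TPM. CD274, which encodes the immune checkpoint ligand PD-L1, held 14.6 and 3.50 TPM in KO against 16.9 to 25.2 TPM and 3.70 to 9.41 TPM. In all 3 genes KO lay below every transduced line. PSAT1, an enzyme of serine synthesis, differed by −0.49, and TLN1, which links integrins to actin, by −0.25, also below all 8. PAR too lay below all 8 lines in both treatments for CD274 (13.6 TPM in UT and 1.59 TPM in E) and TLN1 (40.0 and 47.8 TPM), but not for COL5A1 or PSAT1. The shift did not take in every gene, since GSN, the actin-severing protein gelsolin, differed by −0.0094. In the fit to 18 libraries 11 of the 29 genes called lower, and 0 of the 15 called higher, lay on chromosome 9.

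The neighbourhood of AXL on chromosome 19 was examined as well. Of the 10 protein-coding genes on each side of AXL, 9 were tested. Their differences lay between −0.065 and 0.16, none passed, and none lay outside the transduced lines in both treatments. TGFB1, which encodes a cytokine that drives mesenchymal change, is among them, was named after its values were seen, and held 64.2 TPM in UT and 66.2 TPM in E in KO, within 59.3 to 73.8 TPM and 59.2 to 69.9 TPM in the transduced lines.

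Gene lists were then read by role, and apart from AXL, which is in none of them, no member of the 27 lists passed the test. Counts below give members outside all 8 lines in both treatments, to be read against 4.2% below and 2.61% above over all genes, and medians stand beside −0.012 over all genes. Chromosome 9 raises the share below: without its 364 genes, 260 genes lay below all 8 lines and 235 above, and most lists hold few or no genes of it. Counts on the lower or higher side are to be read against 4919 of 9085 genes on the lower side and 4166 on the higher side. Among TAM receptors and ligands, 5 of 11 members were tested, with a median of 0.035 and 0 outside the lines. TYRO3, the sister receptor of AXL, held 18.4 TPM in UT and 8.64 TPM in E in KO, against medians of 20.04 and 13.8 TPM (difference −0.31; limma adjusted p = 0.57). The ligand GAS6 held 35.0 and 73.6 TPM in KO, inside the transduced lines, and the third receptor MERTK did not pass the filter, at 1.53 and 1.87 TPM. GAS6 and MERTK are given for their roles and were named after their values were seen. ERBB receptors and inhibitors had a median of 0.028 with 0 of 7 outside, and in other receptor tyrosine kinases 1 of 12 lay below, the ephrin receptor EPHB2 (difference −0.44; limma adjusted p = 0.303).

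Mesenchymal genes were mostly lower in KO, with a median of −0.14 over 15 tested members, 13 on the lower side, 5 below all 8 lines and 1 above. The 5 were VIM, TGFBI, COL5A1, COL6A2 and CDH2, named after their values were seen. PAR, which keeps its own AXL gene, also lay below all 8 lines in both treatments for CDH2 (9.57 TPM in UT and 10.8 TPM in E) and COL6A2 (80.4 and 85.2 TPM). For VIM it lay below them in UT and inside them in E (23.1 and 17.6 TPM). For COL5A1 it lay inside them in UT and below them in E (75.3 and 117 TPM). VIM, the intermediate filament vimentin, held 17.9 TPM in UT and 13.1 TPM in E in KO, against 26.0 to 44.8 TPM and 16.6 to 30.5 TPM (difference −0.86; limma adjusted p = 0.291). CDH2, the adhesion protein N-cadherin, held 7.81 and 14.8 TPM in KO against 10.2 to 12.7 TPM and 17.7 to 27.3 TPM (difference −0.54; limma adjusted p = 0.339). S100A4, the exception above the lines, is described above. Single transduced lines had list medians from −0.21 to 0.29, so the KO median did not leave their spread. Without chromosome 9, which removes COL5A1, the median was −0.13 with 4 below.

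Epithelial genes had a median of 0.067 over 27 members, 21 on the higher side and 3 above all 8 lines: KRT18, KRT19 and CLDN4, named after their values were seen. PAR also lay above all 8 lines in both treatments for CLDN4 (303 TPM in UT and 602 TPM in E), and for MUC4 (12.9 and 36.3 TPM), which is given below. CLDN4, a tight-junction protein, held 278 TPM in UT and 530 TPM in E in KO, against 199 to 258 TPM and 428 to 493 TPM (difference 0.29; limma adjusted p = 0.259). In the lung epithelial lineage list, 1 of 7 tested members lay above, the mucin MUC4, which held 5.70 and 41.5 TPM in KO against 1.53 to 3.66 TPM and 19.6 to 31.5 TPM (difference 0.90; limma adjusted p = 0.259).

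Adhesion and growth outputs gave small values. FAK, SRC and ABL adhesion genes had a median of −0.076, with 21 of 26 on the lower side and 1 below all 8 lines. That gene was TLN1 on chromosome 9, which lay below them in PAR too. The list's KO median was below those of all 8 transduced lines, which ran from −0.043 to 0.044, but was −0.026 in E alone. ERK pathway output had a median of −0.12, below the transduced range of −0.070 to 0.14. It was −0.019 in UT alone and ran from −0.18 to −0.016 over all alternative settings. Of its 14 tested members, 1 lay below all 8 lines. That member was FOSL1, an AP-1 transcription factor induced by ERK, which held 196 TPM in UT and 12.04 TPM in E in KO, against 200 to 249.0 TPM and 15.9 to 23.9 TPM (difference −0.45; limma adjusted p = 0.259). YAP and TAZ targets had a median of 0.0043, with MYOF above and CCN1 below among 19. In the Hippo list 2 of 23 lay above, AMOT, a YAP-binding scaffold, and WWTR1, which encodes TAZ.

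Stress and metabolic lists differed in direction. Among NRF2 targets 5 of 26 lay above, with a median of 0.046: AKR1C1, AKR1C2, AKR1C3, AKR1B10 and SRXN1, named after their values were seen. AKR1C1, an aldo-keto reductase, held 864 TPM in UT and 761 TPM in E in KO, against 434 to 655 TPM and 457 to 623 TPM (difference 0.53; limma adjusted p = 0.341). The AKR1C genes are close copies, so reads may be divided among them and they are not separate evidence. Cholesterol and fatty acid synthesis had the lowest median, −0.18, with 25 of 30 on the lower side and 2 below, LSS and EBP. LSS, lanosterol synthase, held 18.5 and 23.2 TPM in KO against 23.8 to 32.0 TPM and 27.5 to 42.2 TPM (difference −0.52; limma adjusted p = 0.303). The list medians of single transduced lines ran from −0.21 to 0.22. Cell cycle genes had a median of −0.079, 34 of 37 on the lower side and 0 outside the lines, and single transduced lines had medians from −0.094 in KD to 0.17 in WT.

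Immune lists were mixed. Inflammatory cytokines and NF-kB targets had the highest median, 0.14, with 4 of 16 above all 8 lines: ICAM1, BIRC3, LCN2 and CXCL16, named after their values were seen. ICAM1, a leukocyte adhesion receptor induced by NF-kB, held 14.7 TPM in UT and 58.3 TPM in E in KO, against 7.99 to 13.0 TPM and 38.2 to 48.3 TPM (difference 0.48; limma adjusted p = 0.405). Interferon-stimulated genes had a median of 0.0036, with 1 of 18 above, UBE2L6. BCL2 family members, which set the threshold for apoptosis, had a median of 0.12 over 13 with 0 outside the lines in both treatments. That median lay above those of all 8 transduced lines, which ran from −0.081 to 0.079.

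**Figure D5:**
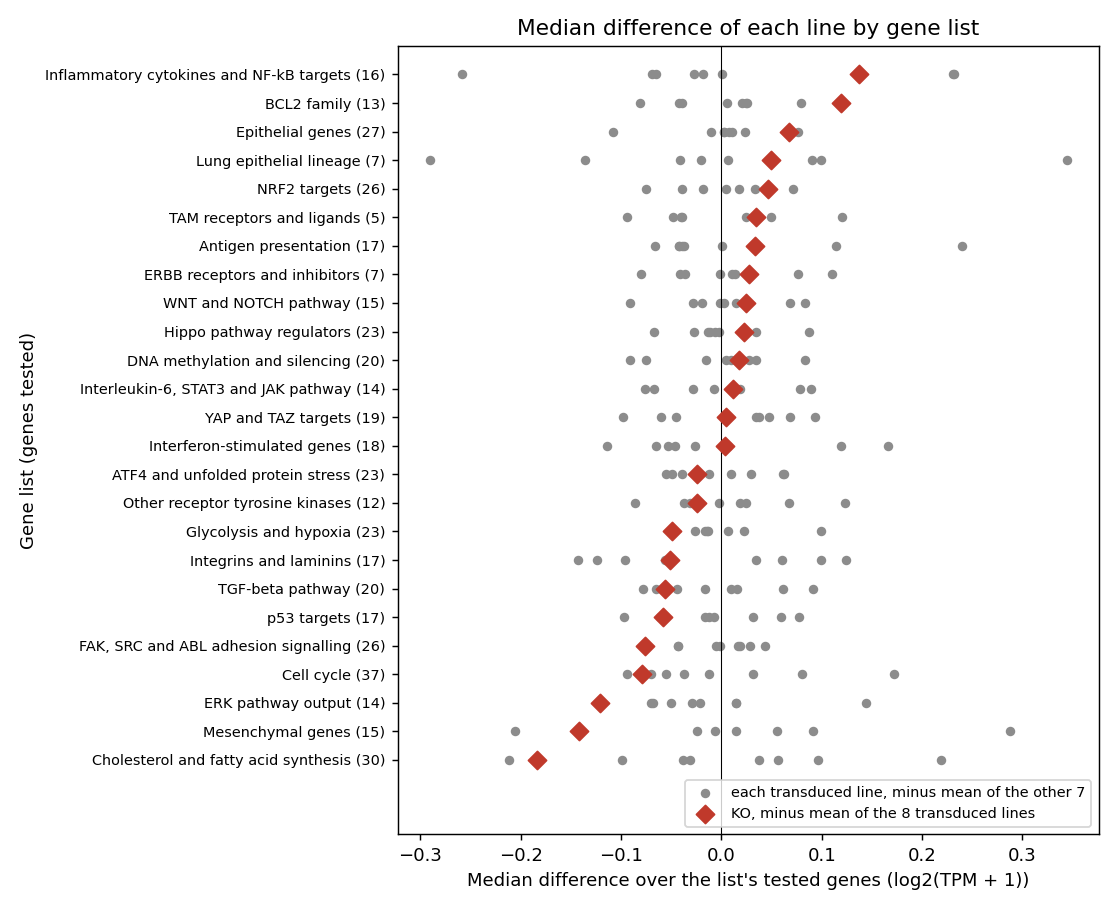
Median difference of each gene list with at least 5 tested members, log2(TPM + 1), for KO against the 8 transduced lines (red diamonds) and for each transduced line against the other 7 (grey points). KO values ran from −0.18 to 0.14 and fell among the grey points, except for ERK pathway output, the FAK, SRC and ABL list and the BCL2 family.

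In the other lists the medians lay between −0.058 and 0.054. Integrins and laminins had 1 of 17 below (ITGA3), antigen presentation 1 of 17 (CD274), the ATF4 and unfolded protein stress list 1 of 23 (PSAT1), glycolysis and hypoxia 1 of 23 (PGAM1), the interleukin-6, STAT3 and JAK list 1 of 14 (SOCS2), and the TGF-beta pathway 2 of 20 (BAMBI and LTBP2). The p53 target list had 1 of 17 above (PHLDA3), the WNT and NOTCH pathway 2 of 15 (DKK1 and FZD7), and DNA methylation and silencing 2 of 20 (APOBEC3B and APOBEC3C). These genes were named after their values were seen. EGFR family ligands kept 1 tested member, TGFA, and the leukocyte, stromal and endothelial markers kept 2, with 0 outside the lines.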

How the data were processed

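RNA was sequenced and the reads aligned by Novogene, per the paper's methods. The submitters' processing notes name kallisto and GRCh38, and the authors deposited TPM per transcript; the kallisto version and annotation are not given in the sources used here. TPM keeps no depth, so no count test or counting interval was possible. Of 188753 transcripts, 169797 matched GENCODE 29 by ID without version and were summed to 35579 genes; the other 18956 held 2.65% to 2.99% of TPM per library. Mitochondrial genes took 11.4% to 17.4% over all 29 libraries, and 11.4% (Y634F UT) to 14.2% (WT UT) in the 18 libraries tested.

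Values were tested as log2(TPM + 1) with limma 3.58.1 in R 4.3.3 (lmFit, eBayes with a trend) on line means of UT and E, KO against 8 lines with 7 residual degrees of freedom; the lone KO line is assumed to vary like the others. Scripts were tested on simulated data. Each line and treatment was a dish of its own with 1 library, so no line has a replicate culture within a treatment, and p-values measure only the spread between these lines.

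The libraries follow from their labels, but this set of members and the gene lists were chosen with earlier results of these data known. Genes were named by rule: AXL; up to 12 genes per direction past the threshold and outside the transduced range, filled to 6 by smallest p; per list, up to 4 members past the threshold or otherwise at most 2 by smallest p; and AXL neighbours that passed. Genes outside this rule are marked or stand in a count. Alternatives covered the unit of the fit, treatment, pseudocount, filter, scaling, variance trend and leaving out each transduced line; chromosome summaries and leaving out chromosome 9 were chosen after seeing the data.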

Additional observations from a re-analysis of the deposited data

Results flagged for a closer look

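Only the genes named by rule were searched for opposite responses to erlotinib. Among them, 3 genes moved in the same direction in all 8 transduced lines and in the opposite direction in KO. How many of all tested genes do so was not counted, so these 3 are not singled out from the rest. AXL changed by −0.22 in KO and by 0.67 to 1.01 in the transduced lines, a difference of −1.09. ENSG00000267340 changed by −0.84 in KO and by 0.12 to 2.67 in the others, a difference of −1.82. AKR1B10 was practically unchanged in KO, at 93.9 TPM in UT and 93.5 TPM in E (a change of −0.0065). It changed by 0.23 to 0.81 in the others, a difference of −0.41. The limma test of each difference did not pass after adjustment.

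In 7 of 131 groups of 8 transduced lines, 1 line stood apart, its gap to the nearest line as a share of the whole range exceeding Dixon's critical value. Chance alone flags about 1 group in 20. These were AMOT in UT (share 0.62, Y750F low at 6.38 TPM), BCAR1 in UT (0.543, Y698F low at 32.0 TPM), DNM1 in E (0.527, KD low at 27.0 TPM), ENSG00000267340 in E (0.621, Y750F high at 55.3 TPM), EPHB2 in E (0.619, Y643F low at 46.3 TPM), TYRO3 in E (0.68, Y643F low at 8.39 TPM) and VGLL4 in UT (0.647, Y634F high at 41.6 TPM).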

How the results depend on the processing

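The 2 calls rested on the settings. The number of genes past the threshold was 44 (15 higher and 29 lower in KO) with 18 separate libraries, 5 (0 and 5) with a correlation within lines estimated, 0 in UT alone, 1 (lower) in E alone, 0 with a filter of mean 1 TPM, 0 with a filter of above 0 in all libraries, 0 with quantile normalization, 0 without a variance trend, and 3 with median centring, of which 1 was higher. Leaving out 1 transduced line gave 0 to 5 calls, 0 to 1 higher and 0 to 4 lower. AXL kept its direction throughout, and its difference left the threshold in UT alone (−1.72), with the filters of mean 1 TPM and of above 0 in all libraries (−2.27 each), with quantile normalization (−2.27) and without a trend (−2.27). Without 1 line it ran from −2.34 to −2.19. The different erlotinib response of AXL passed only with quantile normalization (−1.10; limma adjusted p = 0.0246), the 1 call there, and a filter of 10 TPM in any library gave 1 other call. Genes above all 8 lines numbered 376 with median centring, and 247 to 403 without 1 line; the cause was not tested. UT and E were paired within each line in the fits on line means and line differences. The labels give no replicate numbers to pair by. Depth is unknown and limits low genes to an unmeasured degree.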

Other observations

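KRT13, S100P and SLPI also lay above all 8 transduced lines in both treatments. They were chosen after their values were seen, and none passed the test. KRT13, a keratin of stratified epithelia, held 78.7 TPM in UT and 43.8 TPM in E in KO, against 12.1 to 37.3 TPM and 9.16 to 28.5 TPM. S100P, a secreted calcium-binding protein, held 299.9 and 551 TPM in KO, against 90.2 to 228 TPM and 209.8 to 328 TPM. SLPI, a protease inhibitor related to PI3, held 264 and 375 TPM in KO, against 132 to 224 TPM and 226 to 318 TPM. Their limma adjusted p-values were 0.342 for KRT13, 0.303 for S100P and 0.267 for SLPI.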
